A study of Rattus norvegicus with 10 samples.

Results

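The miR-30 family was followed through small RNA sequencing of rat tissue taken at the site of a mechanical stimulation. Its members were chosen by name, as the mature miRNAs called rno-miR-30 with a letter from a to e and the ending 5p. They were rno-miR-30a-5p, rno-miR-30b-5p, rno-miR-30c-5p, rno-miR-30d-5p and rno-miR-30e-5p, 5 of the 723 mature miRNAs counted. All 5 were detected in all 10 libraries and all 5 passed the filter on low counts, which kept 359 miRNAs.

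Every rat was a female Wistar with collagen induced arthritis (CIA), a model of rheumatoid arthritis raised by immunisation with type II collagen, so the controls carried the disease too, and no healthy tissue was among the 10 libraries. CIA_B was sampled before any therapy. MS_E and MS_A were sampled 1 h and 34 days into mechanical stimulation, in which a short needle was inserted and twirled. PLA_E and PLA_A were sampled at the same times in rats given sterile saline into the peritoneum, which is not the tissue that was sequenced. Each group had 2 libraries, the ages of the rats are not given in the sources used here, and the labels do not name the animals, so the tests measure the spread between these libraries, which may be technical. The labels call the tissue muscle lying under the epidermis, and the methods describe tissue excised from under the skin with its muscle.

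A miRNA is cut from a hairpin precursor that can release one mature strand from each arm, named 5p and 3p. The strand that is kept guides silencing proteins to messenger RNAs through its seed, which is read from bases 2 to 8, so miRNAs with the same seed can share targets. The miR-30 family is abundant in muscle, heart and kidney. It is known to act on the messenger RNAs of connective tissue growth factor, which promotes the deposition of matrix, and of Snai1, a transcription factor of epithelial-mesenchymal transition, and both processes are part of wound healing.

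The mature sequences are printed to show what the members have in common and how close some of them are to each other, with the seed in capitals. They were taken from RefSeq on the GRCr8 assembly, which held 3 of the 5 members, and the last line is a miRNA outside the family with the same seed.
rno-miR-30a-5p: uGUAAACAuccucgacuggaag
rno-miR-30c-5p: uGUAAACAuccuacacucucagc
rno-miR-30e-5p: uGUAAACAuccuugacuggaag
rno-miR-384-5p: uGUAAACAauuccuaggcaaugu

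Among the 693 mature names in that table this seed was found in 4, which were the 4 printed. Counted from the 5′ end, miR-30a-5p and miR-30e-5p were alike at 21 of 22 bases, and the change from miR-30a-5p to miR-30e-5p was C13U. A read with an error at that base could be counted under the other name, and how often this happened was not tested. miR-30c-5p differed from miR-30a-5p at 5 of the first 22 bases, C13A, G14C, G18C, G19U and A20C. All of these differences lay outside the seed.

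miR-30a-5p was at chr9:33233946-33233967 on the plus strand of GRCr8. miR-30c-5p had 2 genes, Mir30c2 with the mature miRNA at chr9:33253695-33253717 on the plus strand, and Mir30c1 at chr5:139634505-139634527 on the minus strand. miR-30e-5p was at chr5:139637504-139637525 on the minus strand. The hairpins of Mir30a and Mir30c2 were thus 19670 bases apart and those of Mir30c1 and Mir30e 2906 bases apart. The mature miR-30c-5p is the same for both of its genes, and the counts at its 2 precursors differed by only 5 to 21 reads in a library. Reads of miR-30c-5p can therefore not be divided between chromosomes 5 and 9, and the larger of the 2 counts was used.

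The libraries held 1513799 to 8926170 miRNA reads and the 5 members took 6.07% to 12.0% of them. miR-30a-5p alone ranked between the fifth and the seventh most counted miRNA. Levels are given below in cpm, that is as counts relative to the size of the library, after scaling by the trimmed mean of M values (TMM). Since 1 read stands for 1 mature miRNA of about the same length, the members were compared on that scale without a correction for length, although the yield of a library differs with the sequence of a small RNA and was not tested. In every group, 1 library had a far higher level of miR-1-3p, the main miRNA of striated muscle, at 80416 to 122986 cpm against 10117 to 15567 cpm in the other. This was replicate 1 in CIA_B, PLA_E and PLA_A and replicate 2 in MS_E and MS_A. The division is present once in each group, so it does not coincide with therapy or time, and results are given with and without a term for it. The 4 muscle miRNAs listed as markers (miR-1-3p, miR-133a-3p, miR-133b-3p and miR-206-3p) were all detected in every group, with a sum of 83910 to 268531 cpm, as the label of the tissue states.

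miR-30a-5p was the most abundant member in all 10 libraries. It measured 62264 and 65861 cpm in CIA_B, 59932 and 26648 cpm in MS_E, 42949 and 85749 cpm in PLA_E, 93455 and 44498 cpm in MS_A, and 47098 and 86665 cpm in PLA_A. Both MS_E libraries lay under both CIA_B libraries, and one of them was the lowest of the 10. In the other 3 groups after therapy the 2 libraries stood on either side of CIA_B.

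miR-30d-5p was the second member by median level. Its libraries held 16240 and 10939 cpm in CIA_B, 14367 and 19118 cpm in MS_E, 10804 and 14670 cpm in PLA_E, 17552 and 16145 cpm in MS_A, and 12144 and 15710 cpm in PLA_A. It was the steadiest of the 5, with a highest library 1.77 times the lowest. For comparison, the median of that ratio was 3.99 over the 337 tested miRNAs that were counted in every library.

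miR-30e-5p held 12113 and 7123 cpm in CIA_B, 4992 and 5983 cpm in MS_E, 7435 and 8998 cpm in PLA_E, 12795 and 9435 cpm in MS_A, and 11784 and 16582 cpm in PLA_A. The 2 MS_E libraries were the lowest of the 10. On this scale all 4 libraries from 34 days lay above all 4 from 1 h, and of the libraries from before therapy one fell in the range of each time.

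miR-30c-5p was measured at 5798 and 3476 cpm in CIA_B, 3365 and 6985 cpm in MS_E, 3661 and 4530 cpm in PLA_E, 6020 and 7540 cpm in MS_A, and 5664 and 5683 cpm in PLA_A. On this scale both MS_A libraries were above both libraries of CIA_B and of PLA_A, whereas MS_E held the lowest library and the second highest.

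miR-30b-5p was the least abundant member in all 10 libraries. It measured 1014 and 632 cpm in CIA_B, 1055 and 2663 cpm in MS_E, 1341 and 692 cpm in PLA_E, 1005 and 2293 cpm in MS_A, and 1621 and 932 cpm in PLA_A. On this scale both MS_E libraries exceeded both CIA_B libraries, and miR-30b-5p varied more than any other member, with a highest library 4.21 times the lowest.

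**Figure D1:**
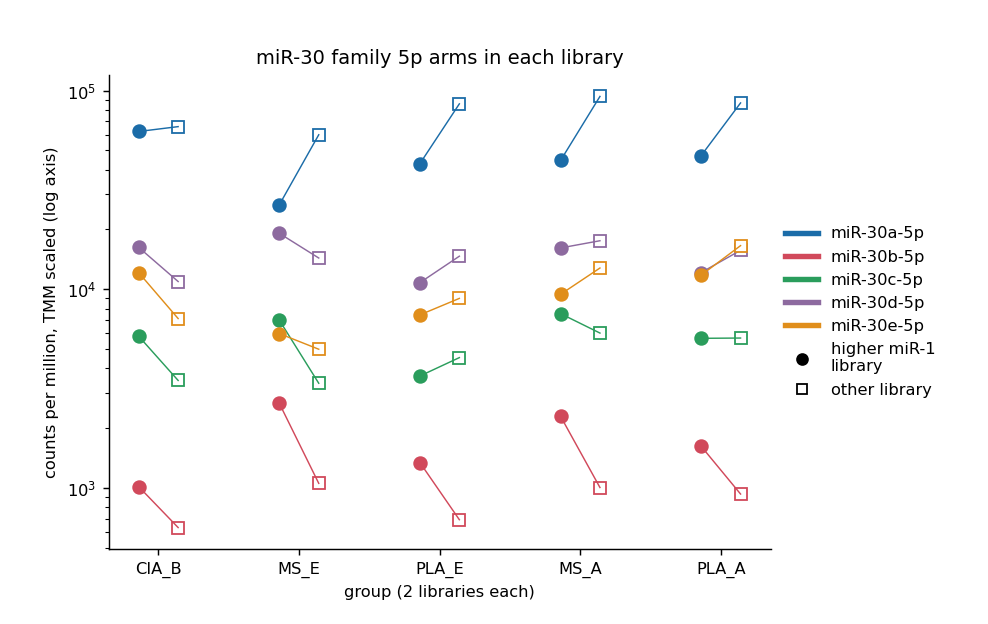
Level of each miR-30 member in each of the 10 libraries, in TMM-scaled cpm on a log axis, by group. A filled circle is the library of the group with the higher miR-1-3p, an open square the other one, and a line joins the 2. miR-30a-5p is on top everywhere, with its circle under its square in every group, and miR-30b-5p is at the bottom with its circle above its square.

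The order of the members was nearly fixed. miR-30a-5p exceeded miR-30d-5p in 10 of 10 libraries, by 1.39 to 6.02 times with a median of 4.07. miR-30d-5p exceeded miR-30e-5p in 9 of 10 libraries, the exception being PLA_A replicate 2, where the ratio was 0.947. miR-30e-5p exceeded miR-30c-5p in 9 of 10, with a median ratio of 2.04 and a ratio of 0.857 in MS_E replicate 2. miR-30c-5p exceeded miR-30b-5p in 10 of 10 libraries, by 2.62 to 6.54 times. The ranges of miR-30d-5p and miR-30e-5p overlapped, as did those of miR-30e-5p and miR-30c-5p, so the neighbours in the middle of the order are separated within libraries rather than across them.

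Of the summed level of the family, miR-30a-5p made up 43.4% to 74.8%, miR-30d-5p 12.4% to 31.1%, miR-30e-5p 5.96% to 15.05%, miR-30c-5p 3.95% to 11.4% and miR-30b-5p 0.604% to 4.34%. The sum was 92731 ± 6646 cpm in CIA_B, 72554 ± 15778 cpm in MS_E, 90415 ± 34259 cpm in PLA_E, 105369 ± 36002 cpm in MS_A and 101942 ± 33419 cpm in PLA_A (SD, n = 2 in each). MS_E was lowest and did not overlap with CIA_B on this scale, but it did as a share of all reads, which was 6.07% and 7.64% in MS_E against 7.44% and 9.37% in CIA_B. The 2 libraries of MS_E differed more in the share of miR-30a-5p than those of any other group. In MS_E replicate 1 miR-30a-5p was 71.6% of the family, and in replicate 2 it was 43.4%, with miR-30d-5p at 31.1%.

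**Figure D2:**
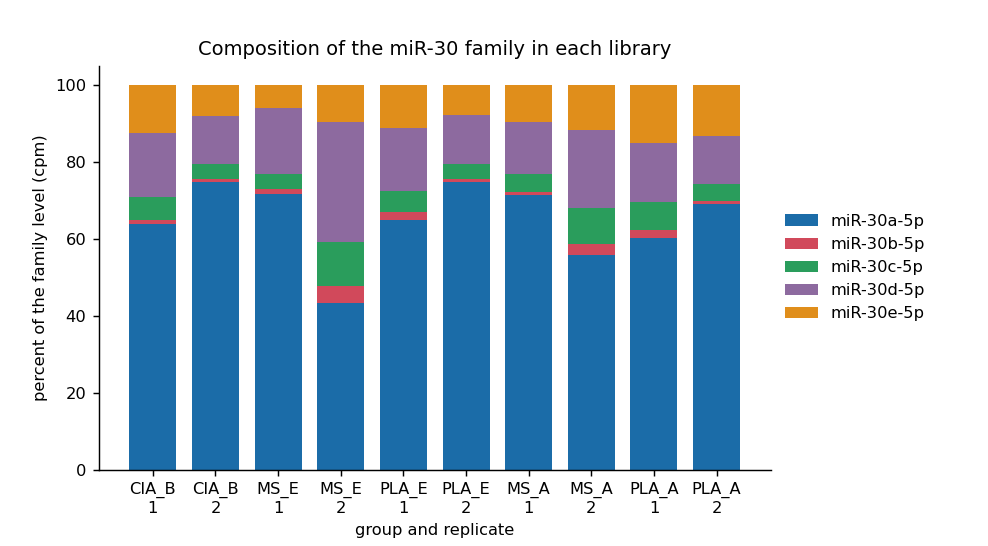
Percentage of the family level taken by each of the 5 members (stacked bars, 1 bar for each library). The share of miR-30a-5p is 43.4% in MS_E replicate 2 and between 55.7% and 74.8% in the other 9 libraries.

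The division of the libraries by miR-1-3p ran through the family in opposite directions. miR-30a-5p was lower in the library with more miR-1-3p in 5 of 5 groups, with a median difference of -0.997 on the log2 scale, though in CIA_B the difference was only -0.08. miR-30b-5p was higher in that library in 5 of 5 groups, by 0.68 to 1.33 on the log2 scale with a median of 0.95. Over all 359 tested miRNAs, 17.5% were higher in 5 of 5 groups and 13.9% lower in 5 of 5. For miR-30c-5p, miR-30d-5p and miR-30e-5p the direction differed between groups on the TMM scale. There miR-30c-5p was higher with more miR-1-3p in 3 of 5 groups, and miR-30d-5p and miR-30e-5p in 2 of 5 each. As a share of all reads, miR-30c-5p and miR-30d-5p were higher with more miR-1-3p in every group, and miR-30e-5p in every group but PLA_A. The direction of these members thus depends on the scaling. The share of miR-30a-5p in the family was 43.4% to 64.9% in the libraries with more miR-1-3p and 69.0% to 74.8% in the others, with no overlap. For miR-30c-5p it was 5.53% to 11.4% against 3.95% to 4.602%, also without overlap.

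**Figure D3:**
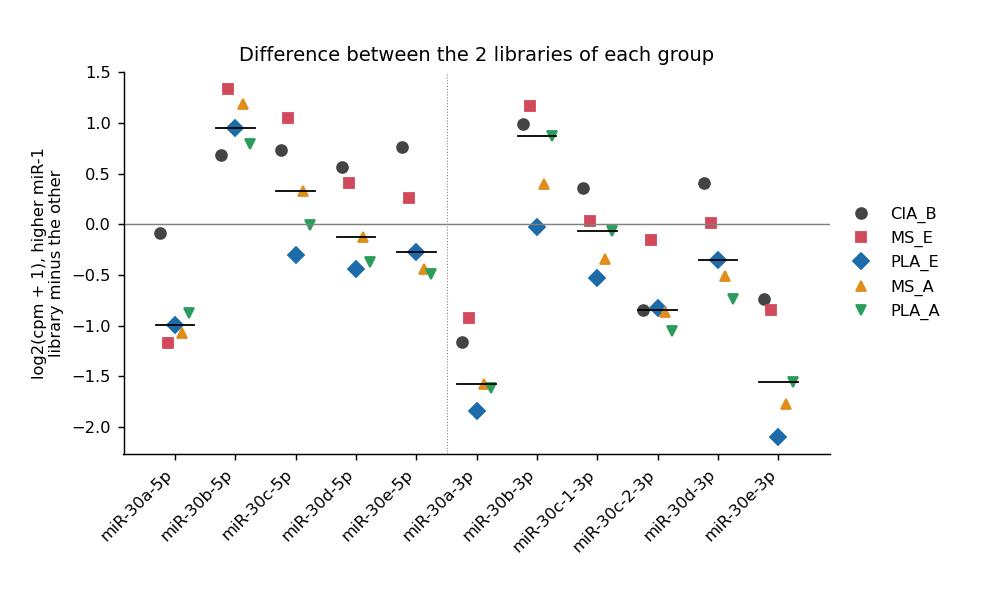
Difference in log2(cpm + 1) between the 2 libraries of each group, the one with more miR-1-3p minus the other, for the 5p arms (left of the dotted line) and the 3p arms (right). Each symbol is a group and each black line the median of the 5 groups. All 5 symbols are under 0 for miR-30a-5p, miR-30a-3p, miR-30c-2-3p and miR-30e-3p, and all 5 are above 0 for miR-30b-5p.

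The first comparison was of the tissue 1 h after stimulation with that before therapy. None of the 5 members passed the thresholds of an unadjusted p under 0.05 and a change over 2-fold in MS_E against CIA_B, where 6.41% of all miRNAs did. In edgeR's quasi-likelihood test, with p values adjusted by Benjamini and Hochberg's method over the 359 miRNAs, no miRNA passed an adjusted p of 0.05 in this or in any other comparison, which is 0% throughout. limma-voom gave 0 as well, and DESeq2 gave 0 to 8 miRNAs by comparison, 8 of them in MS_E against CIA_B, with 0 members among them in any comparison. The largest difference was that of miR-30b-5p, with a log2 fold change of 1.18 (SE 0.64, 95% interval -0.26 to 2.61), an unadjusted p of 0.0976 and an adjusted p of 0.830 by the same edgeR test. miR-30e-5p stood at -0.81 (SE 0.45) and miR-30a-5p at -0.57 (SE 0.63), so the fitted values of the members lay on both sides of 0. The value of miR-30b-5p was 0.35 without MS_E replicate 2, the library of that group with more miR-1-3p, and 1.65 without MS_E replicate 1. On the TMM scale the libraries of the 2 groups did not overlap for 3 of the 5 members, higher for miR-30b-5p and lower for miR-30a-5p and miR-30e-5p, against 31.5% of all miRNAs. As a share of all reads miR-30b-5p did overlap, with 6833 of 8926170 reads in MS_E replicate 1 and 1172 of 1513799 in CIA_B replicate 1. Markers of other tissue moved in the same comparison. The 2 miRNAs of slow muscle fibres, miR-208b-3p and miR-499-5p, fell (2 of 2 past the thresholds, 56.5 to 94.5 cpm in sum in MS_E against 585 to 827 cpm in CIA_B). Of 6 tested epithelial miRNAs, 4 rose (118.7 to 447 cpm in sum of the 7 listed, against 33.8 to 70.9 cpm), and none of the 7 was at 0 in both libraries of a group. miR-223-3p of the leukocyte list (1 of 5) and miR-451-5p of the erythroid list (1 of 3) rose as well. The leukocyte sums did not overlap (3054 to 3402 cpm against 1638 to 1648 cpm). The erythroid sums nearly touched (24.36 to 88.6 cpm against 17.5 to 24.23 cpm), closer than 3 reads, which were 0.441 to 2.60 cpm in these libraries. The part of fibre type, epithelium and blood cells in the values of the miR-30 members was not tested, and in bulk tissue fewer cells of a type cannot be told apart from less RNA per cell.

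With a term for the division of the libraries, the difference in miR-30b-5p had a smaller error. In MS_E against CIA_B its log2 fold change was then 1.07, with an unadjusted p of 0.00525 and an adjusted p of 0.176 in edgeR, so that 1 of 5 members passed both thresholds in that fit (11.4% of all miRNAs). The fit had 12.8% of all miRNAs at an unadjusted p under 0.05, so that a low p was more common among all miRNAs as well. miR-30b-5p had an unadjusted p of 0.0114 in MS_A against CIA_B (4.46% of all miRNAs under 0.05), of 0.0206 in MS_E against PLA_E (8.36%), of 0.0229 in MS against PLA (7.24%) and of 0.0153 in the 4 groups after therapy against CIA_B (8.64%), with adjusted p values in edgeR from 0.527 to 0.848. Its log2 fold changes in these 4 were 0.92, 0.81, 0.56 and 0.71. These comparisons share libraries and are therefore not separate pieces of evidence. In its remaining comparisons with that term, miR-30b-5p had an unadjusted p above 0.05 in edgeR. It was 0.388 in PLA_E against CIA_B (log2 fold change 0.26), 0.0613 in PLA_A against CIA_B (0.61) and 0.312 in MS_A against PLA_A (0.31).

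On the TMM scale, the groups had one and the same order for miR-30b-5p within each kind of library. It ran from MS_E through MS_A, PLA_A and PLA_E to CIA_B, with 2663, 2293, 1621, 1341 and 1014 cpm in the libraries with more miR-1-3p, and with 1055, 1005, 932, 692 and 632 cpm in the others. Of the 359 tested miRNAs, 2.79% had an order of the 5 groups that was the same in both kinds. Among the other members none did. As a share of all reads the order of miR-30b-5p was not the same in both kinds. MS_E then led the libraries with more miR-1-3p and PLA_A the others. For miR-30e-5p and miR-30a-5p, MS_E was the lowest group in both kinds of library, and the rest of the order differed.

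The comparisons of MS_A, PLA_E and PLA_A with CIA_B followed. In MS_A against CIA_B 0 of 5 members passed the thresholds (1.11% of all miRNAs), and miR-30b-5p again had the largest log2 fold change, 1.00 (SE 0.63, 95% interval -0.43 to 2.44, edgeR unadjusted p 0.148, adjusted p 0.994). Without MS_A replicate 2 it was 0.23 and without MS_A replicate 1 it was 1.53. Of the markers, miR-223-3p of the leukocyte list rose (1.45, 1 of 5). Without overlap between the 2 groups, the summed level was lower in MS_A for slow fibre miRNAs (139.1 to 403 cpm against 585 to 827 cpm) and higher for leukocyte miRNAs (2434 to 2620 cpm against 1638 to 1648 cpm), epithelial miRNAs (79.4 to 120.3 cpm against 33.8 to 70.9 cpm) and erythroid miRNAs (42.2 to 58.9 cpm against 17.5 to 24.2 cpm). The part of these cells was not tested. On the TMM scale the libraries of MS_A and CIA_B did not overlap for 1 member, miR-30c-5p, which was higher in MS_A (27% of all miRNAs). As a share of all reads miR-30c-5p overlapped as well. In PLA_E against CIA_B 0 of 5 passed (0.557% of all), and all members overlapped (21.2% of all miRNAs did not). The largest log2 fold change was 0.30 for miR-30b-5p (SE 0.63, 95% interval -1.12 to 1.73, edgeR unadjusted p 0.639, adjusted p 0.994). It was -0.25 without PLA_E replicate 1, 0.0030 without CIA_B replicate 2 and 0.83 when libraries were scaled by their total reads alone. The slow fibre sum was lower in PLA_E (113.1 to 369 cpm) and the leukocyte sum higher (1975 to 2693 cpm) than in CIA_B, both without overlap. In PLA_A against CIA_B 0 of 5 passed, against 6.96% of all miRNAs and 7.52% at an unadjusted p under 0.05 alone. Here too miR-30b-5p led with 0.63 (SE 0.63, 95% interval -0.79 to 2.06, edgeR unadjusted p 0.341, adjusted p 0.853). It was 0.22 without PLA_A replicate 1 and 1.06 with total reads alone, and all 5 overlapped where 36.5% of all miRNAs did not. In PLA_A 3 of 5 leukocyte miRNAs and 2 of 3 erythroid miRNAs rose over CIA_B, and the leukocyte sum was 2175 and 14586 cpm in its libraries. The erythroid sum (42.6 to 67.5 cpm) and the epithelial sum (114.9 to 134.8 cpm) were above those of CIA_B without overlap as well. The part of these cells in PLA_E and PLA_A was not tested either. The 4 comparisons share the CIA_B libraries. For all groups after therapy against CIA_B, 0 of 5 members passed (4.18% of all, 4.46% by p alone), with miR-30b-5p at 0.78 (SE 0.53, 95% interval -0.41 to 1.97, edgeR unadjusted p 0.172, adjusted p 0.978) and every member overlapping (3.9% of all miRNAs did not). In that comparison 2 of 2 slow fibre miRNAs fell, and 2 of 6 epithelial and 2 of 5 leukocyte miRNAs rose.

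Stimulated and placebo tissue were then compared at each time. In MS_E against PLA_E 0 of 5 members passed the thresholds (3.9% of all miRNAs). miR-30b-5p was at 0.87 on the log2 scale (SE 0.63, 95% interval -0.56 to 2.30, edgeR unadjusted p 0.202, adjusted p 0.832) and miR-30e-5p at -0.58 (SE 0.45). The value of miR-30b-5p was 0.049 without MS_E replicate 2 and 1.43 without PLA_E replicate 1. Among the markers, 2 of 6 epithelial miRNAs rose in the same comparison. Without overlap between these groups, the sums of epithelial miRNAs (118.7 to 447 cpm against 57.9 to 108.2 cpm) and leukocyte miRNAs (3054 to 3402 cpm against 1975 to 2693 cpm) were higher in MS_E. Those of slow fibre miRNAs (56.5 to 94.5 cpm against 113.1 to 369 cpm) and fibroblast miRNAs (1418 to 2339 cpm against 2437 to 2702 cpm) were lower. Of the 5 members, only miR-30e-5p did not overlap, with 4992 and 5983 cpm in MS_E under 7435 and 8998 cpm in PLA_E, and 28.1% of all miRNAs did not overlap. In MS_A against PLA_A 0 of 5 passed (1.95% of all), and miR-30b-5p had the largest log2 fold change, 0.37 (SE 0.63, 95% interval -1.05 to 1.79, edgeR unadjusted p 0.571, adjusted p 0.999). It turned to -0.42 without MS_A replicate 2. With total reads alone it was 0.14, and the largest was then miR-30e-5p with -0.68. miR-30c-5p and miR-30d-5p did not overlap and were higher in MS_A (20.1% of all miRNAs did not overlap), yet their log2 fold changes of 0.26 and 0.27 became -0.01 and -0.02 when libraries were scaled by their total reads alone. Their libraries then overlapped. Of the leukocyte list, 2 of 5 fell in MS_A against PLA_A, where the leukocyte sum was 2175 cpm in one PLA_A library and 14586 cpm in the other. Over both times, 0 of 5 passed in MS against PLA (3.34% of all miRNAs, 3.9% by p alone), all 5 overlapped (0.557% of all did not), and the largest value was 0.62 for miR-30b-5p (SE 0.45, 95% interval -0.39 to 1.63, edgeR unadjusted p 0.197, adjusted p 0.850). It was 0.21 without MS_A replicate 2 and 0.22 without MS_E replicate 2. Of the markers, 1 of 2 slow fibre and 2 of 5 leukocyte miRNAs fell. The part of these cell types in the values of the members was not tested.

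The change over time was compared next, and it gave the only member past the thresholds in the fit without a term for the library division. In MS_A against MS_E 1 of 5 members passed the thresholds, with 3.9% of all miRNAs. It was miR-30e-5p, with a log2 fold change of 1.02 (SE 0.45, 95% interval 0.00 to 2.03), an unadjusted p of 0.0491 and an adjusted p of 0.906 by edgeR's quasi-likelihood test. It was the only member whose libraries did not overlap there (32.3% of all miRNAs did not), with a mean of 11115 ± 2376 cpm in MS_A and 5487 ± 701 cpm in MS_E (SD, n = 2 each). With the term for the library division its unadjusted p was 0.0252 and its adjusted p 0.450, and 1 of 5 members passed (8.08% of all miRNAs). Leaving out any 1 of the 10 libraries took it outside the thresholds, with log2 fold changes between 0.81 and 1.17. Of the marker lists, 2 of 6 epithelial miRNAs fell in this comparison (miR-141-3p and miR-200b-3p). The 2 endothelial miRNAs, the arms of miR-126a, summed to 4275 to 10914 cpm in MS_E and 11363 to 14719 cpm in MS_A without overlap, with 0 of 2 past the thresholds. The 2 slow fibre miRNAs did not overlap either, at 56.5 to 94.5 cpm in MS_E and 139.1 to 403 cpm in MS_A, with log2 fold changes of 1.83 and 1.84 and 0 of 2 past the thresholds. The leukocyte sum was lower in MS_A without overlap, at 2434 to 2620 cpm against 3054 to 3402 cpm in MS_E. The part of these markers in the value of miR-30e-5p was not tested.

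In the placebo arm, PLA_A against PLA_E, 0 of 5 members passed (2.79% of all miRNAs), and miR-30e-5p again had the largest log2 fold change, 0.79 (SE 0.45, 95% interval -0.22 to 1.797, edgeR unadjusted p 0.112, adjusted p 0.999). miR-30e-5p and miR-30c-5p did not overlap and were higher at 34 days, where 24.2% of all miRNAs did not overlap. The log2 fold change of miR-30e-5p was 0.42 without PLA_A replicate 2. In the same comparison 2 of 5 leukocyte miRNAs rose, miR-142-3p with 3.52 and miR-142-5p with 3.38 on the log2 scale. The leukocyte sum was 2175 cpm in one PLA_A library and 14586 cpm in the other, against 1975 to 2693 cpm in PLA_E. The sums of endothelial miRNAs (13405 to 14572 cpm against 9921 to 12151 cpm), epithelial miRNAs (114.9 to 134.8 cpm against 57.9 to 108.2 cpm) and erythroid miRNAs (42.6 to 67.5 cpm against 17.4 to 39.7 cpm) were higher in PLA_A without overlap, and the part of these cells was not tested. Whether the change over time differed between the arms was tested as an interaction, in which 0 of 5 members passed (3.34% of all miRNAs). miR-30e-5p was at 0.23 in it (SE 0.63), and the largest value was 0.62 for miR-30a-5p (SE 0.89, 95% interval -1.38 to 2.62, edgeR unadjusted p 0.504, adjusted p 0.993). That value turned to -0.0532 without MS_A replicate 1 and to -0.0515 without PLA_E replicate 2. Of the markers, the epithelial miR-141-3p (-6.31) and the leukocyte miR-142-5p (-3.58) passed the thresholds in the interaction, and their part in the values of the members was not tested.

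Over both arms, miR-30e-5p was higher at 34 days than at 1 h by 0.90 on the log2 scale (SE 0.32, 95% interval 0.19 to 1.62), a change of less than 2-fold, so that 0 of 5 members passed both thresholds (4.74% of all miRNAs) and 1 of 5 had an unadjusted p under 0.05 (6.41% of all). Its unadjusted p was 0.0188 and its adjusted p 0.681 in edgeR. With the term for the library division these were 0.00839 and 0.328, with 12% of all miRNAs at an unadjusted p under 0.05. The 4 libraries from 34 days lay between 9435 and 16582 cpm and the 4 from 1 h between 4992 and 8998 cpm, and only 1.95% of all miRNAs had no overlap in this comparison. A two-sided exact permutation test of the 4 libraries against 4 gave p = 0.0286 for a difference of 0.89 in mean log2 level, the smallest p this design can give, and an adjusted p of 0.429 over the 15 tests of this kind (5 members in 3 pooled comparisons). The CIA_B libraries held 12113 and 7123 cpm, so the level at 34 days was not set apart from that before therapy. Markers of other cells moved between 1 h and 34 days as well. The slow fibre miR-499-5p (1.43 on the log2 scale), the leukocyte miR-142-5p (1.59) and the erythroid miR-144-5p (1.08) rose, the epithelial miR-200b-3p fell (-1.80), and their part in the value of miR-30e-5p was not tested. The leukocyte sum was 2175 cpm in one PLA_A library and 14586 cpm in the other. Leaving out 1 library gave 0.70 to 0.997 for miR-30e-5p in edgeR, with an unadjusted p above 0.05 without PLA_E replicate 1, MS_A replicate 1 or PLA_A replicate 2. When libraries were scaled by their total reads alone the difference was 0.81 with an exact permutation p of 0.0857. The times then overlapped, since MS_A replicate 1 lay under both PLA_E libraries.

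**Figure D4:**
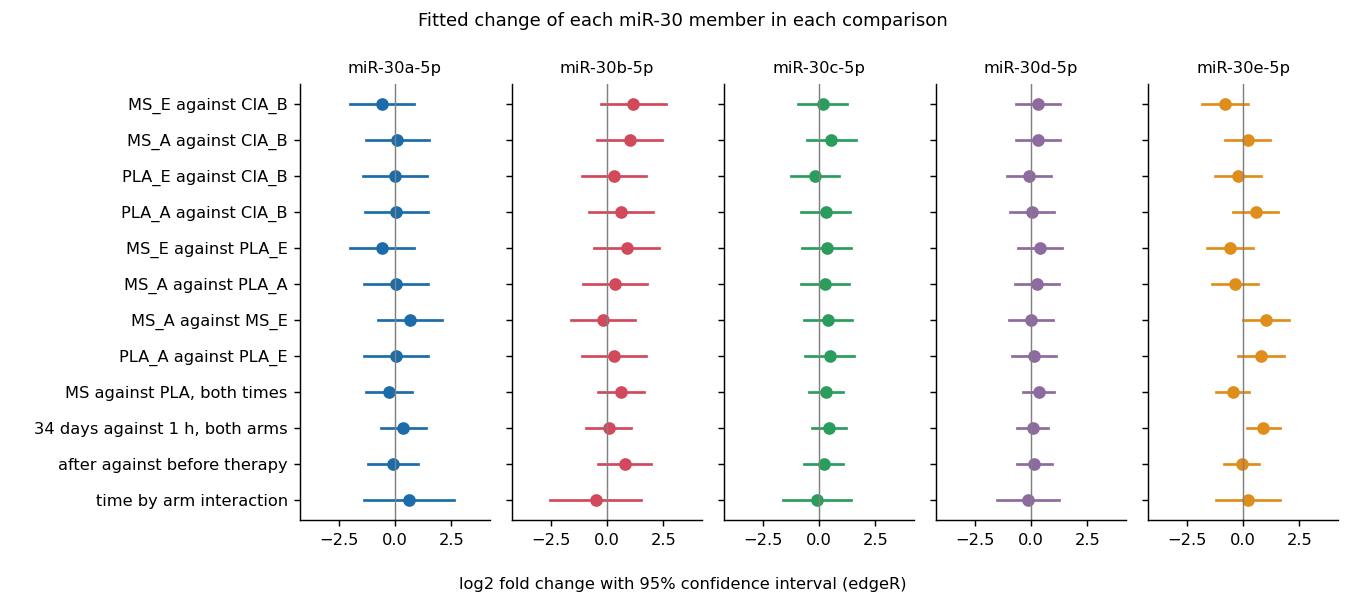
Fitted log2 fold change of each member with its 95% confidence interval (edgeR, horizontal axis) in the 12 comparisons (rows). The intervals of miR-30e-5p lie above 0 in MS_A against MS_E and in 34 days against 1 h, and every other interval crosses 0.

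The opposite strands of the hairpins were far less abundant. The median ratio of the 5p to the 3p arm over the 10 libraries was 58.3 for miR-30a, 66.0 for miR-30b, 35.0 for miR-30c with its 2 3p arms added, 238 for miR-30d and 15.1 for miR-30e. miR-30e thus had the least uneven arms. Its ratio was 16.0 to 29.6 in the libraries with more miR-1-3p and 5.67 to 14.2 in the others, with no overlap. The mature 3p arms found in RefSeq are printed because their seeds, in capitals, are not those of the family and differ between the arms of miR-30a and miR-30c.
rno-miR-30a-3p: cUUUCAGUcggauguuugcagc
rno-miR-30c-1-3p: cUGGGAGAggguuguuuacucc
rno-miR-30c-2-3p: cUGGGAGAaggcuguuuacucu

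The 3p arms had lower fitted levels 1 h after stimulation than before therapy, though none passed the thresholds in the fit without a term for the library division. For miR-30c-1-3p and miR-30d-3p the lowest library was in PLA_E. rno-miR-30e-3p held 756 and 1257 cpm in CIA_B, 474 and 264 cpm in MS_E, 303 and 1301 cpm in PLA_E, 1335 and 389 cpm in MS_A, and 398 and 1169 cpm in PLA_A. Both MS_E libraries were under both CIA_B libraries, and the other groups were spread over the whole range. rno-miR-30a-3p held 975 and 2187 cpm in CIA_B, 874 and 459 cpm in MS_E, 563 and 2027 cpm in PLA_E, 2265 and 760 cpm in MS_A, and 596 and 1827 cpm in PLA_A. In MS_E against CIA_B the 6 fitted log2 fold changes were all negative, from -1.45 for miR-30e-3p (SE 0.85) and -1.25 for miR-30a-3p (SE 0.84) to -0.17 for miR-30b-3p, with a median of -0.65 beside 0.06 for all tested miRNAs. On the TMM scale the libraries of MS_E lay below those of CIA_B without overlap for 5 of the 6, where this held for 13.1% of all miRNAs, and 0 of 6 passed. As a share of all reads only miR-30a-3p and miR-30e-3p stayed apart, and miR-30c-1-3p, miR-30c-2-3p and miR-30d-3p overlapped.

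With the term for the library division, miR-30a-3p was at -1.19 in MS_E against CIA_B (unadjusted p 0.00464) and miR-30e-3p at -1.47 (unadjusted p 0.00485), both with an adjusted p of 0.176 in edgeR, so 2 of 6 arms passed the thresholds in that fit (11.4% of all miRNAs). From 1 h to 34 days of stimulation, 3 of the 6 arms were higher in MS_A without overlap on the TMM scale (16.7% of all miRNAs). As a share of all reads miR-30c-2-3p stayed apart, and miR-30c-1-3p and miR-30d-3p overlapped. With the division term 2 of 6 passed in MS_A against MS_E (8.08% of all miRNAs), miR-30a-3p at 1.03 and miR-30e-3p at 1.01, with an adjusted p of 0.450 in edgeR for both. miR-30a-3p also passed in the interaction (1.08, unadjusted p 0.0378, adjusted p 0.955 in edgeR, 4.46% of all miRNAs). In the other 9 comparisons 0 of 6 arms passed with the term, and without it 0 of 6 passed in all 12. miR-30a-3p and miR-30e-3p were lower in the library with more miR-1-3p in 5 of 5 groups, with median differences of -1.57 and -1.55 on the log2 scale. On the TMM scale the same difference was -0.28 for miR-30e-5p, which was lower in 3 of 5. As a share of all reads miR-30e-5p was lower in PLA_A only.

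miR-384-5p, which has the same seed and is known from the brain, held only 2.21 to 10.46 cpm (4 to 68 reads), far below even miR-30b-5p.

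A list of 8 other miRNAs known to act on matrix proteins or on connective tissue growth factor (miR-133a-3p, miR-133b-3p, miR-18a-5p, miR-19a-3p, miR-19b-3p and 3 of the miR-29 family) was read beside the members, by the same thresholds on the unadjusted p. No adjusted p in the list was under 0.373 in edgeR. In MS_E against CIA_B 2 of 8 rose, miR-19a-3p with a log2 fold change of 2.81 (SE 0.88) and miR-19b-3p with 1.38 (SE 0.58), where 6.41% of all miRNAs passed. The same 2 rose in MS_E against PLA_E, by 1.89 (SE 0.78) and 1.33 (SE 0.58), beside 3.9% of all. In PLA_A against CIA_B 2 of 8 rose, miR-19a-3p by 1.99 (SE 0.88) and miR-29b-3p by 1.70 (SE 0.66), beside 6.96% of all. In the groups after therapy against CIA_B only miR-19a-3p rose, by 1.76 (SE 0.77), beside 4.18% of all. In the interaction miR-19a-3p (-2.57, SE 1.10) and miR-19b-3p (-1.88, SE 0.82) passed with negative values, beside 3.34% of all. In the other 7 comparisons 0 of 8 passed. miR-133a-3p and miR-133b-3p, which share connective tissue growth factor with miR-30, passed in none of the 12.

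Between members, no correlation over all 10 libraries is read as a result, since these fall into 2 kinds of 5 by miR-1-3p. Within a kind the values of 5 libraries are given as a description with no test. Of the 10 pairs of members, miR-30a-5p and miR-30e-5p, which differ by 1 base, went together in both kinds (Pearson's r of 0.89 among the 5 libraries with more miR-1-3p and 0.88 among the other 5). By the same measure miR-30a-5p and miR-30b-5p went in opposite directions in the first kind (-0.83), with 0.08 in the second. miR-30c-5p and miR-30d-5p went together in both (0.83 and 0.79). miR-30b-5p had lower positive values in both with miR-30c-5p (0.62 and 0.33) and with miR-30d-5p (0.48 and 0.73). miR-30c-5p went with miR-30a-5p and with miR-30e-5p in the second kind (0.95 and 0.94) but not in the first (-0.24 and 0.05). The other 3 pairs had opposite signs in the 2 kinds. The tested miRNAs outside the members whose log2 levels followed the mean of the 5 most closely over the 10 libraries were miR-133a-3p (r of 0.87), miR-378a-5p (0.86), miR-133a-5p (0.82), miR-143-5p (0.75) and miR-30d-3p (0.73). These are descriptions, with libraries of 2 kinds among the points. Both arms of miR-133a, which is made by striated muscle, were thus in this group, whereas miR-1-3p, which divides the libraries, was not.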

How the data were processed

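Small RNA libraries (TruSeq Small RNA, HiSeq) were called with CASAVA 1.8, per the labels. The authors discarded reads under 18 bases, mapped the rest to rn4 and miRBase 18 with miRDeep2 and deposited unnormalised read counts per mature miRNA and precursor; 34 of 723 mature miRNAs are listed at several precursors, where the largest count was taken. A series-wide table was left out because the names of its 20 value columns could not be tied to a sample. miRNAs with at least 1 cpm in 5 of 10 libraries were fitted in edgeR 4.0.16 (R 4.3.3) by the quasi-likelihood test with TMM factors, a prior count of 2 and a mean for each of the 5 groups, and adjusted by the Benjamini-Hochberg procedure over 359 miRNAs. The statistics were tested on simulated data. Exact permutation tests used scipy 1.17.1. Depth was 1513799 to 8926170 reads, and every member had at least 1172 reads in a library.

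The groups came from the titles. In each comparison, the member with the largest log2 fold change and any with an unadjusted p under 0.05 are given in full. The members and lists were chosen with earlier results of these data known. The marker lists hold names from 5 of 6 leukocyte and 3 of 4 erythroid miRNAs analysed here; the leukocyte sum was 1638 to 3402 cpm outside PLA_A and 2175 to 14586 cpm in PLA_A, the erythroid sum 17.4 to 88.6 cpm, the endothelial sum 4275 to 14719 cpm and the fibroblast sum 1418 to 3495 cpm. Alternatives were DESeq2 1.42.0, limma-voom (limma 3.58.1), other scalings and filters, summed precursors, fewer libraries, a replicate block and a term for the library division.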

Additional observations from a re-analysis of the deposited data

How the results depend on the processing

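With 2 libraries a group, an exact permutation test cannot go below p = 0.3333, and low counts are no limit for the members. The limit is the spread between the 2 libraries of a group. Scaling by total reads alone shifted the median of all miRNAs by -0.32 to 0.35 on the log2 scale, depending on the comparison.

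The count of members past the thresholds in MS_A against MS_E, 1 in the fit reported, was 0 with DESeq2, DESeq2's size factors, total reads alone, total reads without muscle miRNAs, a fit of only the libraries compared, a minimum mean of 100 counts, no filter, summed precursors and a replicate block, and it was 0 when any 1 library was left out. The log2 fold change of miR-30e-5p stayed between 0.81 and 1.17 in these, and with DESeq2 (0.98, unadjusted p 0.0345) and its size factors (0.98, unadjusted p 0.0460 in edgeR) only the 2-fold limit was missed. It was 1 with limma-voom and with the library division. In MS_E against CIA_B the count of 0 became 1 (miR-30b-5p) with the library division, and leaving out 1 library gave 0 to 1, the 1 being without MS_E replicate 1, where miR-30b-5p was at 1.65, while it was at 0.35 without MS_E replicate 2. In the other 10 comparisons it was 0 under every alternative that was run. Of the 15 exact tests, 1 had p under 0.05, 0 did with total reads alone, and 0 to 1 with 1 library left out, where 4 against 3 cannot pass. Without muscle miRNAs in the total the 1 was miR-30a-5p in MS against PLA. Of the 10 correlations over all libraries, 1 (miR-30a-5p with miR-30b-5p) passed after adjustment by Pearson's r and 2 by Spearman's rho (also miR-30c-5p with miR-30d-5p, rho 0.82, adjusted permutation p 0.0291). By Pearson's r, 3 did with total reads alone, 4 without muscle miRNAs in the total, and 0 to 2 with 1 library left out. The permutations also mixed the 2 kinds of library, so none of these correlations is read as a result.

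With 1 library left out, the log2 fold change of miR-30b-5p ran from 0.35 to 1.65 in MS_E against CIA_B, from 0.23 to 1.53 in MS_A against CIA_B, from -0.25 to 0.74 in PLA_E against CIA_B and from -0.42 to 0.92 in MS_A against PLA_A, and the interaction of miR-30a-5p from -0.053 to 1.32 (-0.0532 without MS_A replicate 1 and -0.0515 without PLA_E replicate 2). The signs turned without PLA_E replicate 1, without MS_A replicate 2, and without either PLA_E replicate 2 or MS_A replicate 1, and the cause was not tested.

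Equal replicate numbers did not pair the libraries, since their deviations correlated by -0.55 to 0.63 over the 10 pairs of groups and 4 of 10 were over 0.1. With the replicate block, miR-30e-5p was at 1.01 in MS_A against MS_E with an unadjusted p of 0.0771 in edgeR, and no other count of members changed. The comparison of all groups after therapy with CIA_B uses every library, so a fit of only the libraries compared was not run for it.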
